A study of Mus musculus with 2 samples.

Results

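The Z disc, M band and thin filament genes of the heart are a set of 34 genes given as a list of names. All 34 were found among the 27999 measured features of newborn mouse heart cells. They code for titin, the actins, the proteins that anchor or cap actin filaments, the proteins of the M band, the myosin light chains, and enzymes and chaperones that act on the sarcomere. The label describes most of them, although the light chains belong to the thick filament and Des forms intermediate filaments around the Z disc.

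The material was whole heart of mice of background C57BL6+ICR at postnatal day 0, minced and digested with trypsin. Single cells were captured with the 10x Chromium 3' version 2 kit, which reads the 3' ends of polyadenylated RNA. There was 1 biological sample with 2 technical replicates, and no group was treated or mutant. The series set out to build a reference map of heart cells from which transcription factors for lineage conversion could be picked.

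The sarcomere is the repeating contractile unit of striated muscle. Thin filaments of actin are anchored with their barbed ends in the Z disc through alpha-actinin, thick filaments of myosin are held together in the M band by myomesins, and titin runs from the one to the other. Each myosin head carries an essential and a regulatory light chain, and atrial and ventricular heart muscle cells are known for using different light chain genes. In newborn mice heart muscle cells are also leaving the cell cycle, and a dividing heart muscle cell takes its sarcomeres apart.

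Of the 34 genes, 30 matched 41 promoter windows of RefSeq (GRCm38.p6), taken here as the 250 bases before each start. A CArG box, the site bound by serum response factor, was searched on both strands and lay in 10 of the 41 windows (24.4%), against 1.47% of all 32851 windows. These 10 windows belonged to 8 genes (Acta1, Actc1, Fhl2, Ldb3, Myl3, Myl7, Myom1 and Nebl), and the 2 Ldb3 windows overlap. A MEF2 site lay in 4 windows (9.76%, of Myoz2, Synpo2l, Ttn and Xirp2), against 0.508% of all windows, and the MCAT element CATTCCT in 8 (19.5%), against 4.51%. The motifs AGATAA and TATAAA lay in 19.5% and 17.1% of the windows, against 9.99% and 12.4% of all windows. A match describes letters in a window and shows no binding. The windows of 4 genes are printed 5′ to 3′ on the strand of the gene, with the CArG box in capitals. Myl3 and Myl7 are shown because they are the ventricular and the atrial light chain that carry one, and Actc1 and Acta1 because they are the 2 actins of the set. The Myl3 window is chr9:110763428-110763677 on the plus strand. The other 3 are on the minus strand, at chr11:5898783-5899032 for Myl7, chr2:114052876-114053125 for Actc1 and chr8:123894776-123895025 for Acta1. The CArG box begins 85 bases before the start in Myl3, 61 in Myl7, 47 in Actc1 and 73 in Acta1.
Myl3: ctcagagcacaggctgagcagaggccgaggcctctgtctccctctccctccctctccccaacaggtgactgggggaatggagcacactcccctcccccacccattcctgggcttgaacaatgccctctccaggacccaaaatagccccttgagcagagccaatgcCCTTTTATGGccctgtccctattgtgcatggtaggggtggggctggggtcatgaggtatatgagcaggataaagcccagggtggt
Myl7: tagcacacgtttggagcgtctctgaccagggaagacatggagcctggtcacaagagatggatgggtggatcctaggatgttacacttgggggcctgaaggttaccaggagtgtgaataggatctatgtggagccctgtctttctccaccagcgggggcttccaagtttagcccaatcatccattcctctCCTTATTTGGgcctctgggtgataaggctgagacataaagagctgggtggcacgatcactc
Actc1: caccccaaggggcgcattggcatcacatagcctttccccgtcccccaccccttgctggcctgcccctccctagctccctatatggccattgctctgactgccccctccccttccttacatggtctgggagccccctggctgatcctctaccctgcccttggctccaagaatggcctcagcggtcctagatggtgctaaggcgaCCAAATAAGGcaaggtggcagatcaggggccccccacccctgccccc
Acta1: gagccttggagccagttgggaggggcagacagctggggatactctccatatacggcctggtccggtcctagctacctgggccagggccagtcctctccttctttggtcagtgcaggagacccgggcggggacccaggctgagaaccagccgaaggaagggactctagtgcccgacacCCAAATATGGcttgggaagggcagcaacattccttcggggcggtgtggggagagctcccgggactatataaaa

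The deposited matrices held 5888 and 6047 barcodes with 34668956 and 33871582 counts. Barcodes with at least 500 genes and with haemoglobin genes under 0.5% of counts were kept, which left 4596 and 4005 (8601 in all), and 53 barcode sequences occurred in both libraries, 49 of them on kept cardiomyocytes. Clustering without the members gave 5410 cardiomyocyte-like barcodes, called cardiomyocytes here. All 12 cardiomyocyte markers were above their fibroblast level in ventricular cells, and 11 of 12 were in atrial cells, with Myh7 the exception at 28.6 CPM, against 42.4 CPM in fibroblasts. Nppa had 531 CPM in ventricular cells and 397 CPM in fibroblasts. The same markers named the clusters, so these levels only describe them. CPM is counts scaled to a total of 1000000 without mitochondrial and haemoglobin genes, and it is not corrected for gene length, so levels are compared between cells and not between genes. No doublet caller was run. An alternative leaves out cardiomyocytes with 5 or more counts of fibroblast, vascular endothelial, endocardium, smooth muscle, pericyte and macrophage markers. Actc1 and Acta1 are close paralogs, and how reads shared by paralogs were counted is not given in the sources used here.

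Cardiomyocytes were called ventricular when Myl2 made up over 0.8 of Myl2 plus Myl7 with at least 10 counts of the 2 together, and atrial when it made up under 0.2. This gave 3531 ventricular cells (1890 and 1641 in the technical replicates) and 1404 atrial cells (749 and 655). Another 138 cells lay between, and 337 had too few counts. Near the limits, 166 ventricular cells had a share of 0.8 to 0.9 and 50 atrial cells a share of 0.1 to 0.2. Without mitochondrial and haemoglobin genes the median cell held 3845 counts in ventricular and 4398 in atrial cells. Depths of cells and shares of counts taken by the members leave these genes out throughout. The median mitochondrial share, of all counts, was 41.1% in ventricular and 21.5% in atrial cells. With 1 biological sample no test is possible, so a gene is called higher or lower when it differed 1.5-fold or more in the same direction in both technical replicates, with at least 20 counts over both groups in each. Intervals are exact at 95% and cover counting error only.

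The first question was which sarcomere genes differ between the chambers. Of counts without mitochondrial and haemoglobin genes, the members together took 4.77% in ventricular cells and 6.16% in atrial cells. Without Myl2 and Myl7 they took 3.60% in ventricular and 3.84% in atrial cells. In ventricular cells 2 of 34 members were called higher, against 7.45% of all 11194 genes tested, and 7 were called lower, against 9.74%. Without Myl2 and Myl7, which chose the groups, 1 was higher and 6 were lower. The other 25 differed by less than 1.5-fold in at least 1 replicate. The median ratio of ventricular over atrial was 1.07 over the members and 0.98 over all genes. The light chains held the extremes in both directions, while titin, cardiac actin, alpha-actinin and the myomesins differed by less than 1.5-fold in both replicates.

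The regulatory light chains Myl2 (chr5:122100951-122113472 in GENCODE vM21, GRCm38, as for the other genes placed here) and Myl7 (chr11:5896637-5898782) chose the groups, so their values only describe them. Myl2, the ventricular regulatory light chain, had 11651 and 11274 CPM in ventricular cells and 346 and 438 CPM in atrial cells. Myl7, its atrial counterpart, had 226 and 288 CPM in ventricular cells and 22662 and 22852 CPM in atrial cells. The groups were apart in both replicates, as the rule requires.

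Myl3 (chr9:110741861-110769798), the ventricular essential light chain, had 10549 and 10162 CPM in ventricular cells, against 818 and 967 CPM in atrial cells. It was 11.6-fold higher in ventricular cells (interval 11.3 to 12.0), with 12.9 and 10.5 in the replicates. Myl4 (chr11:104550663-104595753), the atrial essential light chain, had 163 and 180 CPM in ventricular cells and 11403 and 11753 CPM in atrial cells, a ratio of 0.0147 (0.0142 to 0.0153). Myl1 (chr1:66924295-66945404), an essential light chain best known from fast skeletal muscle, had 40.9 and 34.2 CPM in ventricular cells and 1030.0 and 1056 CPM in atrial cells, a ratio of 0.0362. Both were thus lower in ventricular cells in each replicate, with no overlap.

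RNA free in the suspension can put light chain counts into cells that do not make them, so the low levels are set beside those of fibroblasts. Each cell was thinned to 1500 counts, and shallower cells were left out here and wherever cells were thinned. Myl3 then had a count in 54.3% of atrial cells and in 38.8% of fibroblasts. Myl4 had one in 19.2% of ventricular cells and in 19.3% of fibroblasts. Myl1 had a count in 4.89% of ventricular cells and in 2.29% of fibroblasts. By CPM, Myl3 had 890.0 in atrial cells and 552 in fibroblasts, Myl4 171 in ventricular cells and 274 in fibroblasts, and Myl1 37.7 in ventricular cells and 24.1 in fibroblasts. Thus Myl4 in ventricular cells was at or below its fibroblast level by both measures. Myl3 in atrial and Myl1 in ventricular cells were above theirs in these pooled values. The fibroblast level of Myl1 was 16.2 and 32.9 CPM in the replicates, so in replicate 2 it nearly reached the ventricular level. Macrophages held Myl1 at 28.0 and 37.2 CPM and Myl3 at 620 and 943 CPM. In replicate 2 these were near the ventricular level of Myl1 and the atrial level of Myl3. The median cell held 3845 counts in ventricular cells, 4398 in atrial cells and 5501 in fibroblasts before thinning. Since the chamber rule keeps cells low in Myl7 or Myl2, it can also lower genes that go with them, and the part of free RNA in these levels was not tested.

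Among the Z disc genes, 3 were called lower in ventricular cells. Ankrd1, a titin-binding protein that also acts in the nucleus, had 792 and 696 CPM in ventricular cells and 2420 and 2206 CPM in atrial cells, a ratio of 0.32 (0.31 to 0.33). Pdlim3, an alpha-actinin-binding PDZ and LIM protein, had 30.2 and 27.0 CPM in ventricular cells and 52.0 and 53.0 CPM in atrial cells, a ratio of 0.55. Csrp3, the muscle LIM protein, had 1456 and 1425 CPM in ventricular cells and 2225 and 2340 CPM in atrial cells. Its ratio of 0.63 (replicates 0.65 and 0.61) lay close to the limit, and the call was lost in 7 of 19 alternatives. Trim54, a ubiquitin ligase of the sarcomere, had 7.46 and 6.79 CPM in ventricular cells and 43.6 and 41.9 CPM in atrial cells, a ratio of 0.17 from 107 and 287 counts.

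The core of the Z disc and thin filament differed little. Ttn had 4204 and 4375 CPM in ventricular cells and 3866 and 3944 CPM in atrial cells, a ratio of 1.10. Actn2, the sarcomeric alpha-actinin, had 854 and 827 CPM in ventricular cells and 705 and 665 CPM in atrial cells (1.23), and Actc1, the cardiac actin, had 8414 and 7889 CPM in ventricular cells and 6814 and 6671 CPM in atrial cells (1.21). Tcap, the titin cap, had 474 and 467 CPM in ventricular cells and 547 and 564 CPM in atrial cells, a ratio of 0.85. Des, desmin, had 846 and 824 CPM in ventricular cells and 602 and 588 CPM in atrial cells, a ratio of 1.40. The counting intervals of these ratios did not include 1, yet none reached 1.5-fold.

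Just short of the limit on the higher side lay Fhl2, a LIM protein of the Z disc and I band, with ratios of 1.51 and 1.47 in the replicates, and Xirp2, an actin-binding Xin repeat protein, with 1.42 and 1.78. Acta1, the skeletal actin, had 35.9 and 37.9 CPM in ventricular cells and 24.8 and 11.1 CPM in atrial cells. Its ratio was 1.45 in replicate 1 and 3.42 in replicate 2, where atrial cells held 36 counts. On the lower side lay Cmya5, a large protein of the Z disc region, with 0.71 and 0.72. The M band genes Myom1 and Myom2 had ratios of 1.29 and 0.93. The remaining 14 members had pooled ratios between 0.841 for Mylk3, a kinase of the regulatory light chain, and 1.30 for Myoz2, a calcineurin-binding Z disc protein. They were Ldb3 (1.05), Nebl, Flnc, Xirp1, Synpo2l, Smyd1, Pdlim5, Lmod2, Tmod1, Nexn, Trim63 and Unc45b besides these 2.

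**Figure D1:**
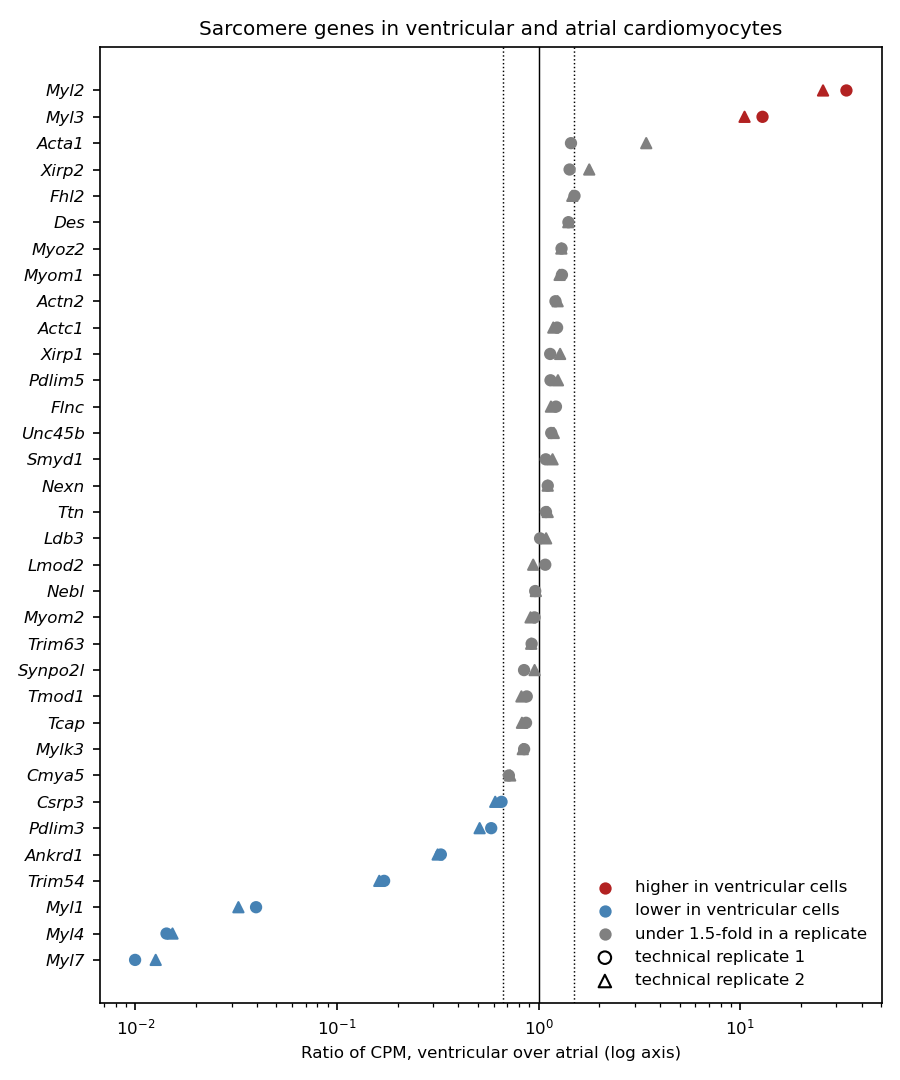
Ratio of CPM in ventricular over atrial cardiomyocytes (log axis) for the 34 genes, with a circle for technical replicate 1 and a triangle for replicate 2. Myl2 and Myl3 lie at 29.4 and 11.6 over both replicates and Myl1, Myl4 and Myl7 below 0.1, while 25 genes are grey because they were under 1.5-fold (dotted lines) in a replicate; Myl2 and Myl7 chose the groups.

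Beside the members, 53 other genes were listed, called other sarcomere genes here. They are thick filament and regulatory genes, Z disc and costamere genes, and genes of ubiquitin ligases, chaperones and the like. Of these, 51 could be compared. In ventricular cells 13 were higher, against 7.45% of all genes, and 8 lower, against 9.74%. Myh7, the slow myosin heavy chain, was 26.1-fold higher and Smyd2, a methyltransferase, 29.9-fold higher in ventricular cells. Pdlim1 was 4.91-fold higher, while Mybphl, a myosin-binding protein, had a ratio of 0.0107. Summed lists of markers named for other cell types also differed between the chambers. Which genes of a list carried the difference was not resolved, and heart muscle cells may make some of them. A sum therefore does not show that those cells were present. The summed pericyte list (8 markers, 0 of them at zero) had 336 and 328 CPM in ventricular cells and 78.2 and 78.3 CPM in atrial cells, and the smooth muscle list 609 and 577 CPM in ventricular cells and 332 and 300 CPM in atrial cells. The vascular endothelial list had 911 and 1002 CPM in ventricular cells and 596 and 702 CPM in atrial cells, and the brown adipocyte list (2 of 5 markers at zero in each) 2565 and 2230.4 CPM in ventricular cells and 1616 and 1323 CPM in atrial cells. Other lists were lower in ventricular cells. The skeletal muscle list, which does not hold Myl1 and had 3 of 7 markers at zero in each chamber, had 16.7 and 14.9 CPM in ventricular cells and 62.6 and 59.2 CPM in atrial cells. The glia list had 15.6 and 15.8 CPM in ventricular cells and 49.1 and 52.4 CPM in atrial cells, and the endocardium list 24.8 and 28.2 CPM in ventricular cells and 38.7 and 43.8 CPM in atrial cells. Leaving out cells with 5 or more counts of fibroblast, vascular endothelial, endocardium, smooth muscle, pericyte and macrophage markers left 760 ventricular and 676 atrial cells. The brown adipocyte, skeletal muscle and glia lists were not part of this filter. With it Pdlim3 and Csrp3 had ratios of 0.745 and 0.67 and were no longer called. In that alternative 4 members were higher, against 6.77% of all genes. Whether these lists bear on the other ratios was not tested.

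The 138 cells between the chamber limits held 6212 CPM of Myl2 and 5845 CPM of Myl7, which placed them there. Myl3 was at 6364 and 5483 CPM and Myl4 at 4089 and 2320 CPM in the replicates, between the chambers for both genes, and so was Ankrd1 at 1230 and 1272 CPM. Whether they are single cells or doublets was not tested.

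The next question was which members change in dividing cells. Each cell was thinned to 1500 counts, and shallower cells (200 ventricular and 33 atrial) were left out. A thinned cell with 3 or more counts of a list of 40 mitotic genes was called cycling. A cell with 0 such counts and under 3 of a list of 25 S-phase genes was called non-cycling, and the rest were in neither. By this rule 11.3% of the 3331 ventricular cells left (10.3 to 12.4) were cycling. Of the 1371 atrial cells left, 9.19% were (7.71 to 10.8). From the unthinned counts of the same cells the shares were 17.3% in ventricular and 14.6% in atrial cells. Exactly 3 counts were held by 43 of the 377 cycling ventricular cells and by 14 of the 126 cycling atrial cells. Cycling ventricular cells held a median of 4848 counts and non-cycling ones 3892. Cycling atrial cells held a median of 6312 counts and non-cycling ones 4409.

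In ventricular cells no member was higher in cycling cells, against 11.1% of 10069 genes, and 5 of 34 were lower, against 4.73%. In atrial cells no member was higher, against 9.21% of 8784 genes, and 6 were lower, against 6.22%. Csrp3, Tcap, Myom2 and Synpo2l were lower in cycling cells of both chambers. In ventricular cells 28 of 34 members lay below 1 in both replicates (82.4%, against 30.2% of all genes), and in atrial cells 25 did (73.5%, against 30.0%). The median ratio of cycling over non-cycling was 0.81 over the members and 1.06 over all genes in ventricular cells, and 0.74 over the members and 1.04 over all genes in atrial cells. Ratios move with the scaling, since a median-of-ratios size factor shifted all genes by log2 0.11 in ventricular and 0.13 in atrial cells. With it 11 members were lower in each, against 7.71% of all genes in ventricular and 9.01% in atrial cells.

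Tcap, which caps titin at the Z disc, had 244 and 260 CPM in cycling ventricular cells and 526 and 518 CPM in non-cycling ones, a ratio of 0.48 (0.44 to 0.53). In atrial cells it had 209 and 248 CPM in cycling cells and 617 and 611 CPM in non-cycling ones, a ratio of 0.37. Csrp3 had 969 and 882 CPM in cycling ventricular cells and 1551 and 1517 CPM in non-cycling ones (0.60), and 1585 and 1537 CPM in cycling against 2409 and 2462 CPM in non-cycling atrial cells (0.64). Both genes lay lower in cycling cells of each replicate.

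Myom2, a myomesin of the M band, had 227 and 175 CPM in cycling ventricular cells and 452 and 441 CPM in non-cycling ones, a ratio of 0.45. In atrial cells it had 185 and 222 CPM in cycling and 483 and 488 CPM in non-cycling cells, a ratio of 0.42. Myom1, the other myomesin, had ratios of 0.78 and 0.76 and was not called in either chamber. Synpo2l, a Z disc protein that binds alpha-actinin, had 273 and 262 CPM in cycling ventricular cells and 453 and 502 CPM in non-cycling ones (0.56). In atrial cells it had 256 and 219 CPM in cycling and 557 and 538 CPM in non-cycling cells (0.44).

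Acta1 was lower in cycling ventricular cells, with 6.46 and 13.6 CPM (20 counts) against 44.5 and 46.1 CPM (430 counts) in non-cycling ones, a ratio of 0.22 (0.13 to 0.34). In atrial cells the replicates went opposite ways, with 7.04 and 39.6 CPM (3 and 15 counts) in cycling and 25.9 and 6.17 CPM in non-cycling cells. Ldb3, a PDZ and LIM protein of the Z disc, had 596 and 560 CPM in cycling and 1017 and 908 CPM in non-cycling atrial cells (0.60), and ratios of 0.68 and 0.70 in ventricular cells. Cmya5 had 72.7 and 63.4 CPM in cycling and 111 and 126 CPM in non-cycling atrial cells (0.58), and ratios of 0.52 and 0.71 in ventricular cells. Whether the chambers differ in these genes was not tested.

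The core genes lay below 1 without reaching the limit in both replicates. In cycling over non-cycling ventricular cells, Ttn had ratios of 0.79 and 0.88, Actn2 of 0.87 and 0.77, Actc1 of 0.70 and 0.71 and Des of 0.68 and 0.62. Myl2 had 8401 and 7535 CPM in cycling and 12440 and 12068 CPM in non-cycling ventricular cells (0.65). Myl7 had 15225 and 16200 CPM in cycling and 24559 and 23794 CPM in non-cycling atrial cells (0.65). Pdlim3, Pdlim5, Nebl and Myoz2 lay near 1, with pooled ratios from 0.95 to 1.08 over both chambers.

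**Figure D2:**
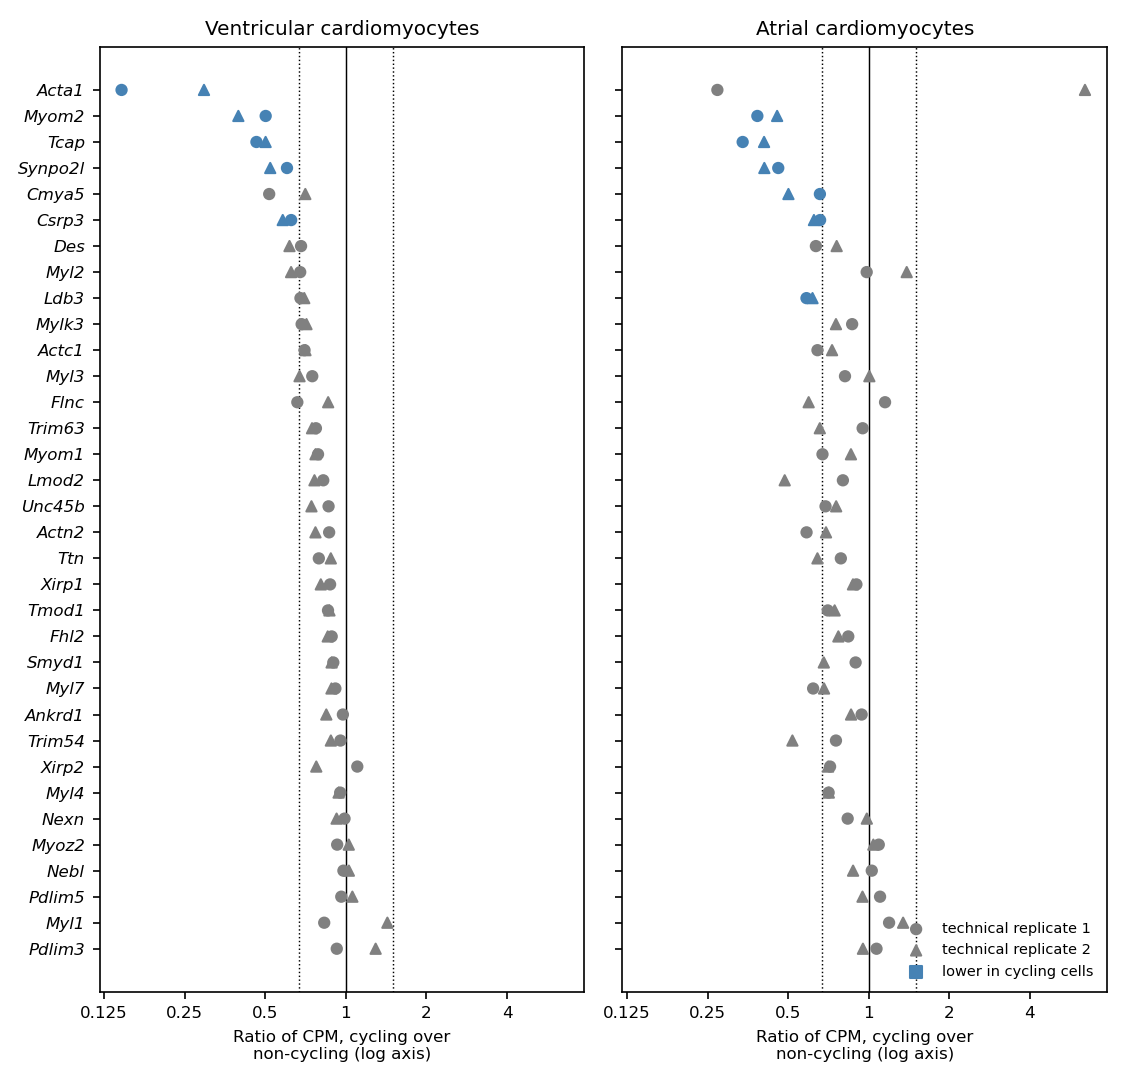
Ratio of CPM in cycling over non-cycling cells (log axis) for the 34 genes in ventricular cells (left) and atrial cells (right), with a circle for technical replicate 1 and a triangle for replicate 2. Blue genes were 1.5-fold or more lower in both replicates: 5 in ventricular and 6 in atrial cells, 4 of them shared, and no gene was higher in both replicates.

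The other sarcomere genes gave 4 higher and 10 lower of 50 in cycling ventricular cells, against 11.1% and 4.73% of all genes. In cycling atrial cells 2 were higher and 11 lower of 47, against 9.21% and 6.22%. Myh7 had a ratio of 0.33 in cycling ventricular cells and Mybphl one of 0.33 in cycling atrial cells. Hsp90aa1, a chaperone, was 2.01-fold and 2.21-fold higher in the replicates and Klhl41, a ubiquitin ligase adaptor of muscle, 1.90-fold higher in cycling ventricular cells. The fibroblast marker list (10 markers) had 433 and 250 CPM in cycling ventricular cells and 154 and 228 CPM in non-cycling ones. The pericyte list had 279 and 325 CPM in cycling and 340 and 344 CPM in non-cycling ventricular cells. The skeletal muscle list had 12.0 and 8.38 CPM in cycling and 18.2 and 16.4 CPM in non-cycling ventricular cells. The brown adipocyte list was lower in both chambers, with 1688 and 1340.5 CPM in cycling and 2751 and 2362 CPM in non-cycling ventricular cells. In atrial cells it had 901 and 684 CPM in cycling and 1765 and 1409.7 CPM in non-cycling cells. The fibroblast list had 157 and 322 CPM in cycling and 134 and 196 CPM in non-cycling atrial cells. Their part in the ratios was not tested.

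Cells in S phase (3 or more S-phase counts and under 3 mitotic counts) numbered 163 in ventricles and 58 in atria. In ventricular S-phase cells 1 member was higher than in non-cycling cells, against 5.90% of 9697 genes, and 0 of 34 were lower, against 4.14%. That member was Trim54, with 21.4 and 14.4 CPM in S-phase and 6.77 and 7.15 CPM in non-cycling cells, from 13 counts. Myom2 had 483 and 492 CPM in S-phase and 452 and 441 CPM in non-cycling cells, a ratio of 1.09. Tcap had 360 and 291 CPM in S-phase and 526 and 518 CPM in non-cycling cells, with ratios of 0.69 and 0.56. In atrial S-phase cells 4 of 33 members tested were lower, against 5.75% of 8423 genes, and none was higher, against 6.84%. Tcap had a ratio of 0.53 and Synpo2l of 0.61, and Lmod2, which elongates thin filaments, and Trim54 rested on 9 and 6 counts in S-phase cells.

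The cycling cells, called mitotic here, were also set against S-phase cells directly, with 33 members tested in ventricular and 31 in atrial cells. The mitotic group was chosen by the mitotic list alone, whatever its S-phase counts, so it may include cells in S phase. Myom2 had 227 and 175 CPM in mitotic and 483 and 492 CPM in S-phase ventricular cells, a ratio of 0.42 (0.36 to 0.48). In atrial cells it had 185 and 222 CPM in mitotic and 369 and 460 CPM in S-phase cells, a ratio of 0.49. Synpo2l and Des were also lower in mitotic ventricular cells (0.62 and 0.60), against 3.73% of 7027 genes called lower, and Pdlim3 was higher (1.74, interval 0.95 to 3.45), against 8.52%. In atrial cells Ldb3 was lower (0.56), against 4.46% of 4175 genes, and Lmod2 higher (2.14, interval 1.05 to 4.92), against 8.26%. Lmod2 rested on 7 and 2 counts in the S-phase cells of the replicates.

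The clusters of ventricular cells differed in a few members. These comparisons were added after the clusters had been seen, and clusters are named by their leading gene. The clustering left the members out. The largest cluster was led by Lrtm1 (1450 cells). The cluster led by Nppb, a natriuretic peptide gene, held 850 cells and had 4 members higher, against 2.18% of 9330 genes, and 1 lower, against 6.77%. Ankrd1 had 1182 and 1006 CPM in the Nppb cluster and 603 and 536 CPM in the Lrtm1 cluster (1.91). Acta1 had 63.7 and 64.2 CPM in the Nppb cluster and 32.2 and 31.6 CPM in the Lrtm1 cluster (2.01), and Csrp3 had 1844 and 1771 CPM in the Nppb cluster and 1140 and 1160 CPM in the Lrtm1 cluster (1.57). Xirp2 was higher (1.57), and Smyd1, a methyltransferase needed for sarcomere assembly, was lower (0.66). Nppb, Ankrd1 and Acta1 are known as genes that respond to load in heart muscle.

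The Irx2 cluster (632 cells) had Pdlim3 at 48.9 and 37.4 CPM, against 15.7 and 16.7 CPM in the Lrtm1 cluster (2.71), and Myl1 at 39.9 and 46.4 CPM in the Irx2 cluster and 25.9 and 16.7 CPM in the Lrtm1 cluster (1.97). These 2 were higher, against 2.60% of 9182 genes. Myom2 was lower, with 349 and 356 CPM in the Irx2 cluster and 583 and 546 CPM in the Lrtm1 cluster (0.62), where 1.03% of genes were lower.

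The cluster led by Gal and Dcpp1, with 118 cells (71 and 47), had the most members called of these 3. Of 33 members tested, 5 were higher, against 12.0% of 8433 genes, and 8 were lower, against 8.88%. Myl1 had 234 and 154 CPM in the Gal cluster and 25.9 and 16.7 CPM in the Lrtm1 cluster (9.27). Csrp3 had 2472 and 3125 CPM in the Gal cluster and 1140 and 1160 CPM in the Lrtm1 cluster (2.38), and Tcap had 860 and 768 CPM in the Gal cluster and 426 and 413 CPM in the Lrtm1 cluster (1.96). Pdlim3 and Xirp2 were also higher (2.59 and 2.54). Myom2 had 84.3 and 82.5 CPM in the Gal cluster and 583 and 546 CPM in the Lrtm1 cluster (0.15). Ankrd1 had 154 and 330.0 CPM in the Gal cluster and 603 and 536 CPM in the Lrtm1 cluster (0.39), and Ldb3 had 566 and 488 CPM in the Gal cluster and 1211 and 1232 CPM in the Lrtm1 cluster (0.44). Acta1 had 1 count in the Gal cluster and 148 in the Lrtm1 cluster, a ratio of 0.045 (0.0011 to 0.26). Myom1 (0.47), Pdlim5 (0.56), Actn2 (0.57) and Des (0.59) were the other 4 lower. All clusters come from the same hearts, and they also differ in depth, with medians of 5433 counts in the Gal and 3005 in the Lrtm1 cluster, and in mitochondrial share, at 23.3% in the Gal and 46.9% in the Lrtm1 cluster. The part of these in the ratios was not tested.

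**Figure D3:**
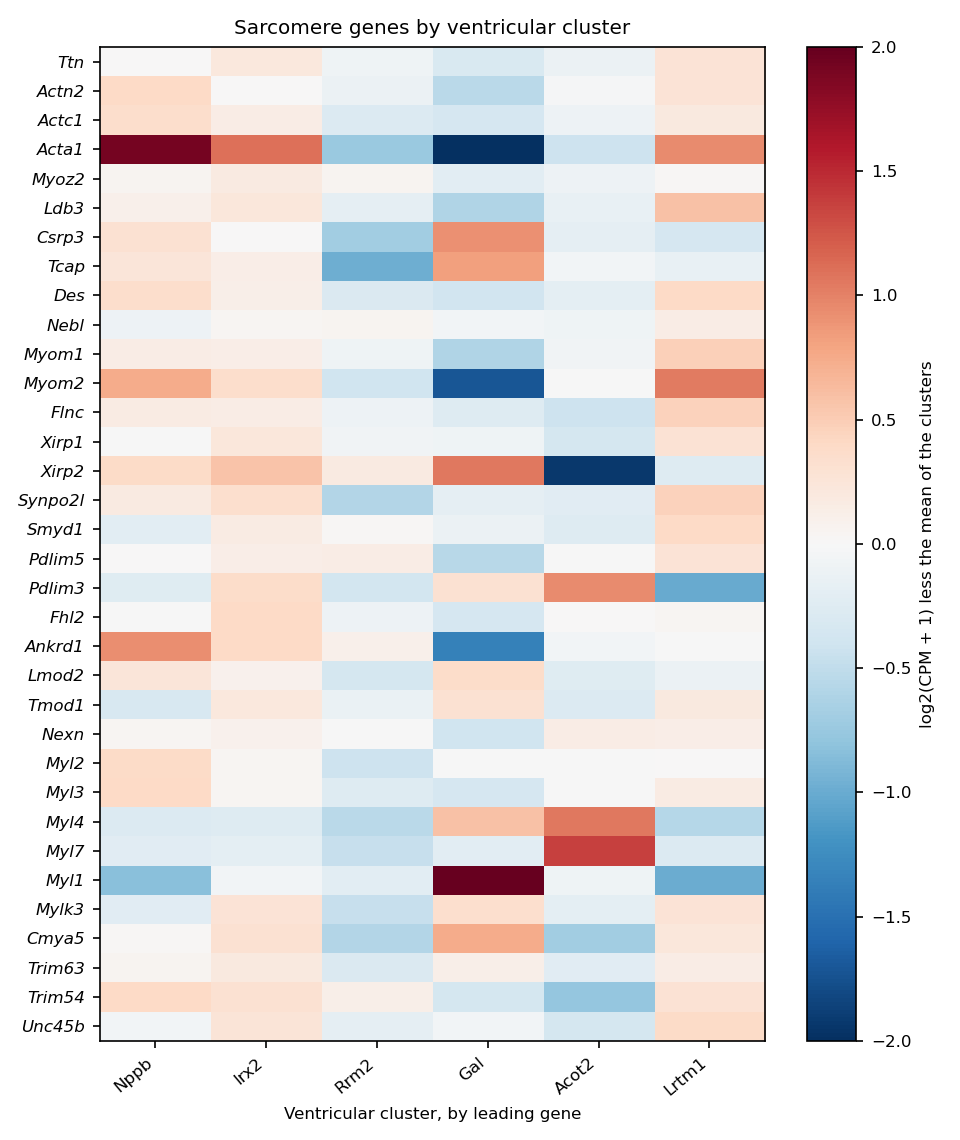
log2(CPM + 1) of each of the 34 genes in each cluster of ventricular cardiomyocytes, less the mean over these clusters, with the clusters as columns named by leading gene. The Gal cluster is the highest in Myl1 and the lowest in Acta1 and Myom2, and the Rrm2 cluster, with 87.1% cycling cells, is the lowest in Tcap and Synpo2l.

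Against the other cell classes, 31 of 34 members were 1.5-fold or more higher in cardiomyocytes than in every one of 6 other classes in both replicates, against 11.6% of 11256 genes. The other classes were smooth muscle, pericytes, fibroblasts, endocardium, vascular endothelium and macrophages, named from their markers and of 179 to 1269 cells. The median member was 9.65-fold above the next class, against 0.61 over all genes. The 3 exceptions were Pdlim3, Unc45b and Acta1.

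Pdlim3 had 37.1 and 34.9 CPM in cardiomyocytes and 322 and 373 CPM in fibroblasts, or 9.58 times the cardiomyocyte level. It had 231 and 258 CPM in endocardium, 260 and 185 CPM in smooth muscle and 81.5 and 84.5 CPM in pericytes. Cardiomyocytes were thus below 4 of the other classes. Unc45b, a chaperone for myosin, had 174 and 173 CPM in cardiomyocytes and 157 and 163 CPM in vascular endothelium, which held 92.1% of the cardiomyocyte level, and 54.0 and 51.2 CPM in endocardium. Acta1 had 31.1 CPM in cardiomyocytes and 23.5 CPM in smooth muscle, where it rested on 24 and 7 counts.

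The level of heart muscle RNA in the other classes was set from 6 heart muscle genes that are no members (Myh6, Tnnt2, Tnni3, Tnnc1, Mybpc3 and Nppa), whose highest levels were 5.71% to 15.6% of the cardiomyocyte level, depending on the class. A member at 2 times or more the highest of them in both replicates was counted as above this level, and 7 of 34 were so in at least 1 class, against 95.8% of all 11256 genes. Most genes are not particular to heart muscle, so the count is also given among genes that lead in cardiomyocytes, where 4 of 31 members were above, against 66.6% of 1307 genes. The 7 members above were Pdlim3, Flnc, Unc45b, Pdlim5, Des, Acta1 and Nexn, and the 4 that also lead in cardiomyocytes were Flnc, Pdlim5, Des and Nexn. Flnc, filamin C, reached 37.3% of the cardiomyocyte level in endocardium and 19.6% in fibroblasts. Des reached 27.0% in pericytes, with 231 and 174 CPM. Nexn, an actin-binding Z disc protein, reached 42.7% in smooth muscle, with 393 and 288 CPM, and Pdlim5 31.9%. The other 27 members were not above this level in any of the 6 classes compared. Epicardial cells (64) and T or NK cells (31), with under 50 cells in each replicate, and an unnamed cluster of 112 barcodes were not compared.

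**Figure D4:**
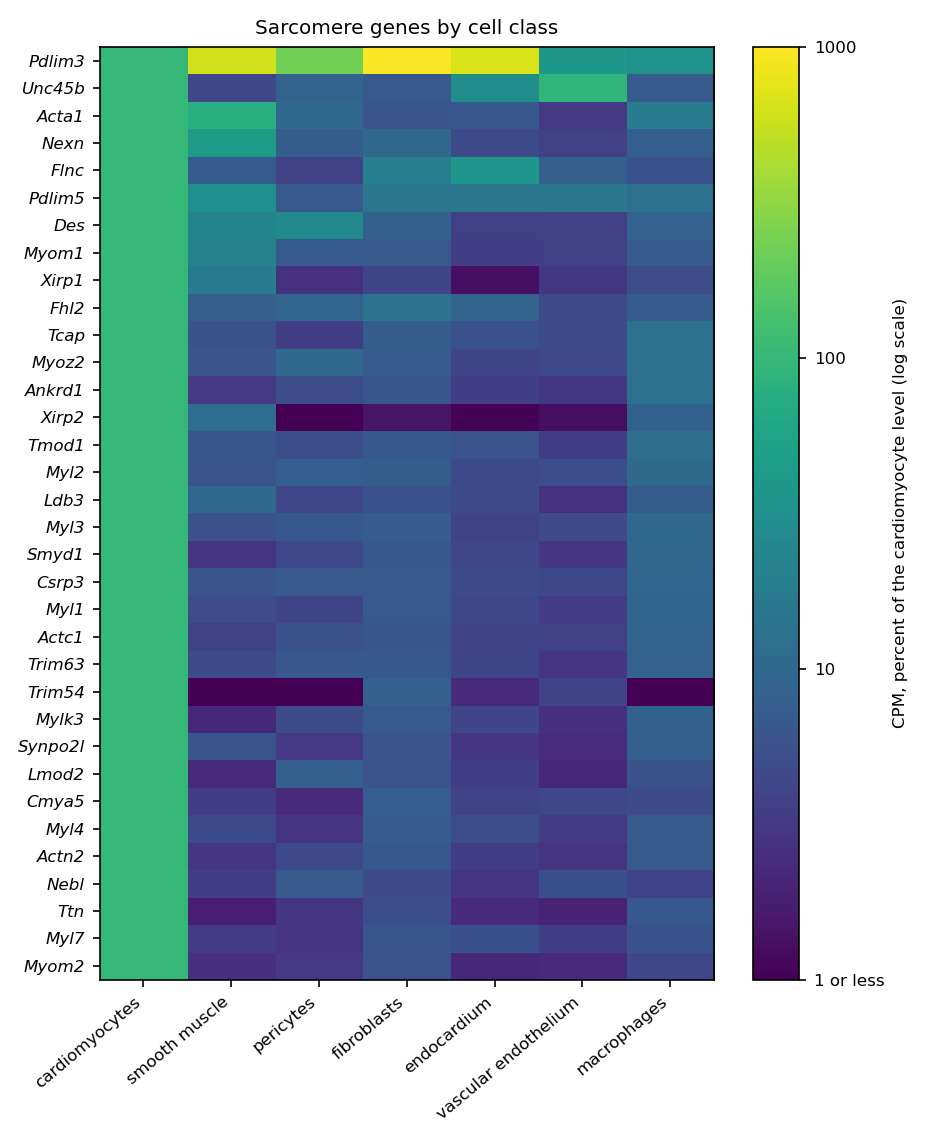
Level of each of the 34 genes in 7 cell classes as a percent of its level in cardiomyocytes, on a log colour scale, with the classes as columns and the cardiomyocytes first. Pdlim3 is brighter in fibroblasts, endocardium, smooth muscle and pericytes than in cardiomyocytes, Unc45b is near the cardiomyocyte level in vascular endothelium, and Nexn and Acta1 stand out in smooth muscle.

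The members also differed in how evenly single cells held them. After thinning to 1500 counts, the variance over the mean, which is 1 where counting alone sets the spread, was under 1.5 for 25 of 34 members in ventricular and 24 in atrial cells, with a median of 1.17 in ventricular and 1.12 in atrial cells. In ventricular cells Ankrd1 had 4.18 and 3.60, and 39.3% of cells held a count. In atrial cells Ankrd1 had 3.18 and 2.61, and 84.0% of cells held one. Acta1 had 2.65 and 3.13 in ventricular cells, although 3.27% of cells held a count, so its counts lay in few cells. Myl7 had 10.5 and 9.50 in atrial cells, where 100% of cells held a count, and Actc1 3.32 and 3.44 in ventricular cells. This measure also rises with the level of a gene, and their mean thinned counts were 33.4 and 12.3. The tenth of cells with most of the gene held 21.8% of atrial Myl7 and 20.9% of ventricular Actc1 counts. For Ankrd1 in ventricular cells that share was 56.9%. Low values of members with few counts therefore do not show even levels. What sets this spread was not tested.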

How the data were processed

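The authors deposited whole-number, unnormalised counts for each gene in each barcode, from 2 technical replicates of 1 biological sample. Cell Ranger 2.1.0 and mm10 are named in the submitters' processing notes. Whether a count is a UMI or a read is not stated, so values are called counts. The members, gene lists and cell rules were chosen with earlier results of these data known. Features were given symbols from the gene name table supplied with the reference, in which 354 had none, and gene positions come from GENCODE vM21 (GRCm38). The label records give both replicates one internal identifier, while the matrices carry 2. Python 3.11.15, scanpy 1.11.5, scipy 1.17.1 and igraph 0.11.9 were used. Leiden clustering (resolution 1, 2000 variable genes, 30 components, 15 exact neighbours, seed 0) ran without members, other sarcomere genes, cycle lists, mitochondrial and haemoglobin genes. It gave 21 clusters, named from marker lists by mean log2(CPM + 5) against other clusters. Counts were summed per group and replicate. Members called in a comparison were named with values, as were Myl2, Myl7, Ttn, Actn2, Actc1, Acta1, Des and Tcap. The call rule was tested on simulated data. Replicates are technical, so their spread says nothing of differences between animals. Myl2 and Myl7 are only described between chambers. Depth per median cell was 3845 ventricular and 4398 atrial counts, without mitochondrial and haemoglobin genes. Alternatives changed the scaling, the total, the filters on barcodes and genes, the fold, the chamber limits, the cycling rule, thinning and the clustering resolution, and left out each replicate in turn. The cluster contrasts and the mitotic against S-phase contrasts were added after the data had been seen. The clusters of atrial cells are not reported here.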

Additional observations from a re-analysis of the deposited data

How the results depend on the processing

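Over 23 alternatives, 16 of 27 called ratios kept their call in all that were run. The 27 pool chamber, cycling and class calls, including Myl2 and Myl7 between chambers, which chose the groups. Of the 31 class calls, only those of the preset members Myl2, Myl7, Ttn, Actn2, Actc1, Des and Tcap were followed. All of these were kept, so 16 of 27 is not a rate over all calls made. None of the 5 ventricular cycling calls was kept in all alternatives, and of the 6 atrial ones only Tcap and Synpo2l were. Cycling ventricular members called lower numbered 5, against 4.73% of all genes. They became 11 with median-of-ratios scaling (against 7.71%), 8 at 5 mitotic counts (6.24%) and 1 at 2-fold (1.35%). Without thinning 2 were lower (1.92%), and in S-phase cells 0 were lower (4.14%) and 1 was higher (5.90%). Cycling atrial members called lower numbered 6 and became 11 with median-of-ratios scaling (9.01% of all genes, against 6.22%) and 3 at 2-fold (2.03%). In cycling atrial cells 11 were lower without either replicate, and 0 to 1 were higher, while over all genes 17.0% and 16.1% were lower without replicate 1 and without replicate 2 (6.22% with both) and 18.5% were higher (9.21% with both). Higher in ventricular over atrial cells were 4 with other-marker barcodes left out, against 6.77% of all genes. Without a replicate 3 to 4 were higher, when 11.5% to 11.7% of all genes were higher (7.45% with both). In all, 3 results reversed in S-phase cells: Acta1 to 1.10 and Myom2 to 1.09 in ventricular and Ldb3 to 1.08 in atrial cells. These S-phase values compare other cells. The cause of the other shifts was not tested. Each comparison is made within a replicate, but both replicates are technical, so no paired test over animals was possible. Depth limits Trim54, Acta1 and Lmod2, which rest on few counts.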

Other observations

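One cluster of 112 barcodes stayed unnamed because its markers did not reach the naming rule. Its mitochondrial share was a median of 0.82%, against 41.1% in ventricular cells. The members took 7.12% of its counts without mitochondrial and haemoglobin genes. Its cause was not tested.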
